A study of Mus musculus with 16 samples.

Results

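Perfluorooctanoic acid (PFOA), a perfluorinated surfactant, was accompanied in mouse liver by RNA of 7 genes for channels, carriers and receptors that vehicle livers held at or near 0: Otop1, Aqp3, Kcnq3, Gabrg1, Ucp3, Slc22a12 and Vmn2r3. They are 7 of the 53465 gene rows of the count table and were picked for exactly this pattern, about 0 counts under vehicle and counts under PFOA. The contrast of PFOA with vehicle therefore chose them, and their values in it are given as a description, with no test. The contrast of the diets under PFOA was tested.

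The study compared PFOA with vehicle in livers of C57BL/6 mice on a control or a high-fat diet, and liver fat is not measured here. HFD_PFOA and HFD_vehicle mice had eaten a high-fat diet, and CD_PFOA and CD_vehicle mice a control diet, for 16 weeks before 8 weeks of PFOA or vehicle. All mice were 29 to 30 weeks old, and each of the 4 groups held 4 mice, which the series design counts as separate replicates. Neither sex nor PFOA dose is stated in the labels read here. The labels name no genetic change in any group.

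Liver normally makes little or no RNA from most of these genes, which are known from other tissues: sour taste cells and inner ear (Otop1), skin and kidney (Aqp3), neurons (Kcnq3 and Gabrg1), muscle and brown fat (Ucp3), kidney proximal tubule (Slc22a12) and the vomeronasal organ (Vmn2r3). PFOA is known in rodents as an activator of PPARA, the fatty acid sensing nuclear receptor that drives fatty acid oxidation genes in hepatocytes, and also of the xenobiotic receptors CAR and PXR. PPARA binds DNA with its partner RXR at direct repeats of the hexamer AGGTCA spaced by a single base, called DR1.

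Promoter sequences are shown for Ucp3, Otop1 and Aqp3, the members with the most RNA per kilobase of exon, because they are the DNA at which such receptors could be looked for. The windows come from RefSeq (GRCm38.p6) and hold 250 bases before and 50 after the annotated start. They span chr7:100472741-100473040 (plus strand) for Ucp3, chr5:38277154-38277453 (plus strand) for Otop1 and chr4:41098134-41098433 (minus strand) for Aqp3. For Otop1 the RefSeq start lies 1432 bp downstream of the GENCODE M21 start. For Vmn2r3, whose window was searched but is not shown, it lies 2292 bp downstream. Capitals mark a DR1 match with up to 2 mismatches and exact hexamers.
Ucp3: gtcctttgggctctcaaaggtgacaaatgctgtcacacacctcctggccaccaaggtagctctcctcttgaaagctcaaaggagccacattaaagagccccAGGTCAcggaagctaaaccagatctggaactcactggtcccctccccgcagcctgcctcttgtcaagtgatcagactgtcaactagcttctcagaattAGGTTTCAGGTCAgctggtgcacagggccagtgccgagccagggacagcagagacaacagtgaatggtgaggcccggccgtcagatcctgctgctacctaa
Otop1: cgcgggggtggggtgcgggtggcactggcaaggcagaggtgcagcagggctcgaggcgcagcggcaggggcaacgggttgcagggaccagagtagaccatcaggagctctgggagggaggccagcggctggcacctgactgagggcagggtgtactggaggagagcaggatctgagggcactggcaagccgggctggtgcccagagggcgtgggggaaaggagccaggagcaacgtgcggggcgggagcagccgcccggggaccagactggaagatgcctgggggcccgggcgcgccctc
Aqp3: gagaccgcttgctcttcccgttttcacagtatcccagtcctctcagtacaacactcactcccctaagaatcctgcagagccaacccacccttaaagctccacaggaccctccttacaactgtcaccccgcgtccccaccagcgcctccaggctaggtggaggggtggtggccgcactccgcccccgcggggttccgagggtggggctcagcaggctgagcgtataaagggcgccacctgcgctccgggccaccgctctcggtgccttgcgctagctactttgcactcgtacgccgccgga

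The motif search found matches in 1 of the 6 member promoters in the RefSeq table, that of Ucp3. RefSeq windows were matched by symbol for every member but Kcnq3, and both strands were read. DR1 was searched as AGGTCANAGGTCA, and Ucp3 held AGGTTTCAGGTCA, with 2 mismatches, starting at -51 from the start site. Of 32851 promoters of the same length, 3.86% held a DR1 with up to 2 mismatches and 0.0396% an exact one. The hexamer AGGTCA stood in the Ucp3 window at -149 and at -44, the second inside the DR1 match, and 16.3% of all promoters hold at least 1 hexamer. DR4 (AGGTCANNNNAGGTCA), the spacing bound by CAR, matched the Ucp3 window with 2 mismatches at -149, overlapping the first hexamer. With up to 3 mismatches, a looser limit, 21.9% of promoters match DR4, and the share with up to 2 was not counted. A match is a description of letters and not a bound site, and the other windows hold no match only within these 300 bases.

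The livers' labels were checked against marker genes, and the series as a whole is described here once. Library totals ran from 14456524 to 25778125 counts, and 14998 genes had enough counts for the test. Hepatocyte markers such as Alb and Apoa1 were abundant in every library, with sums over 6 genes of 53040 to 64680 CPM in HFD_PFOA, 58410 to 75000 in CD_PFOA, 76600 to 91500 in HFD_vehicle and 102100 to 131400 in CD_vehicle. Of these 6, edgeR called 1 higher and 4 lower with PFOA in HFD (median log2 fold change -0.47) and 1 higher and 5 lower in CD (-0.81); the part of this in the members' values was not tested. CPM are counts per 1000000 counts of a library scaled by TMM, a factor that aligns libraries on the bulk of their genes. Library CD_vehicle 4 stands apart for these genes: it holds 23 of the 50 counts that all members together have in 8 vehicle libraries. RNA from bulk liver does not tell more RNA per cell from more cells that make it.

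Across the members, 46 of 56 vehicle values (7 genes in 8 livers) were 0, while 0 of 56 PFOA values were. The sums were 12718 counts under PFOA and 50 under vehicle. On both diets, the lowest PFOA liver of every member lay above its highest vehicle liver. Because this separation is what the members were chosen for, nothing is read from it. Over all genes tested, edgeR called 16.5% with PFOA in HFD (8.6% higher) and 24.4% in CD (11.8% higher).

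**Figure D1:**
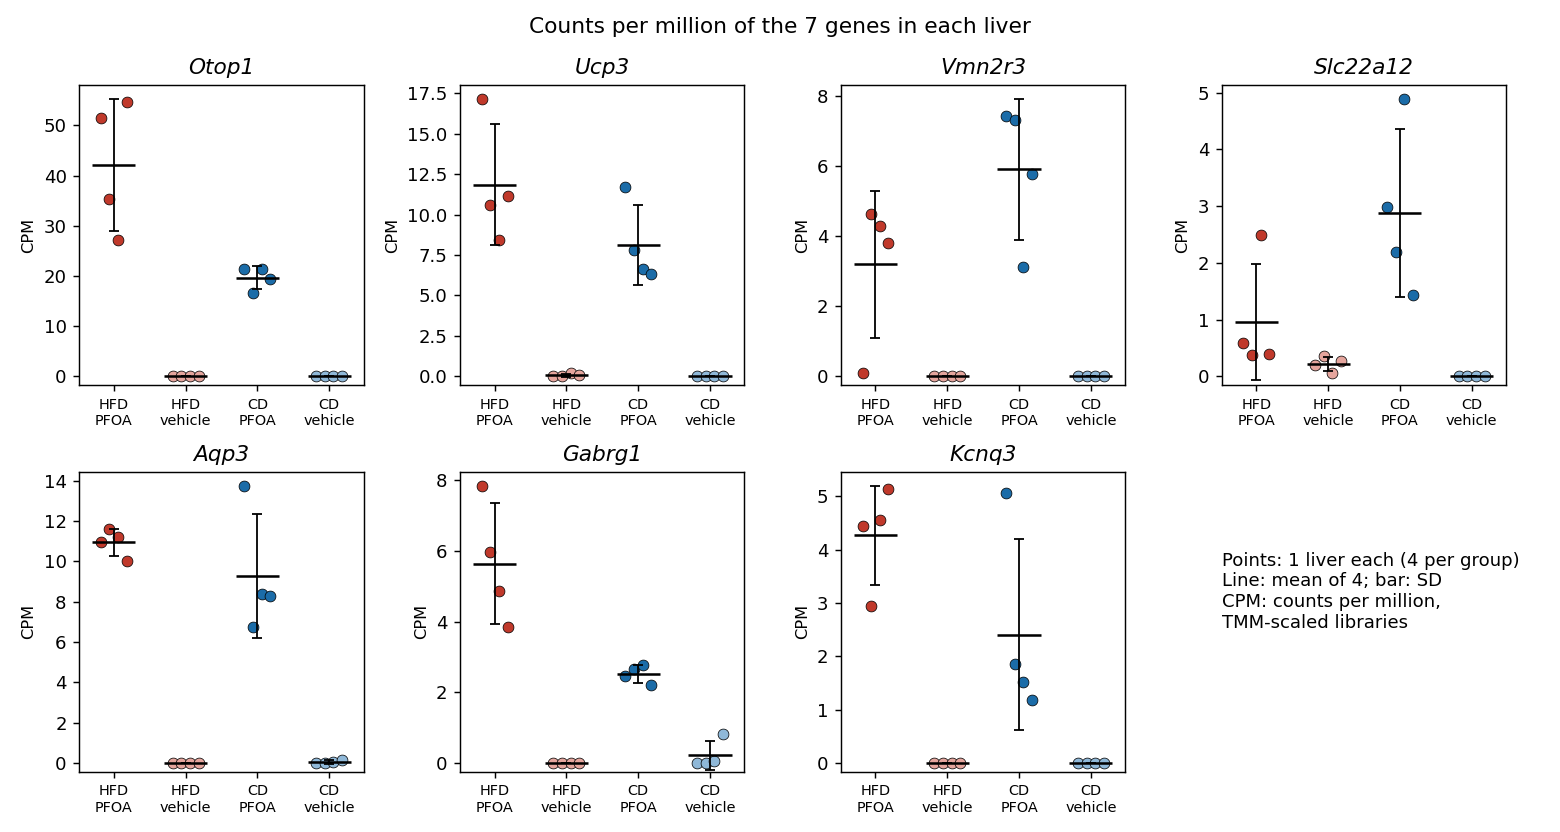
CPM (vertical axis) of each gene in every liver, grouped on the horizontal axis as HFD_PFOA, HFD_vehicle, CD_PFOA and CD_vehicle. Points are livers, lines the mean of 4 and bars the SD. Vehicle livers lie at or near 0, and Otop1 reaches the highest level, 54.6 CPM in 1 HFD_PFOA liver.

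Otop1 encodes otopetrin 1, a proton channel of sour taste cells that is also needed in mice to form the otoconia of the inner ear. It lies at chr5:38275972-38304217 on the plus strand (GRCm38, GENCODE M21 for this and the positions that follow). It had 1217, 864, 697 and 1395 counts (51.6, 35.4, 27.1 and 54.6 CPM) in the HFD_PFOA livers. The CD_PFOA livers had 513, 401, 506 and 476 counts (21.3, 16.6, 21.3 and 19.5 CPM), and all 8 vehicle livers had 0. Every HFD_PFOA liver was thus above every CD_PFOA liver. With the 4 vehicle livers of a diet set to a floor of 3 counts in sum, as for each bound below, Otop1 was at least 1214-fold higher in HFD_PFOA and at least 594-fold higher in CD_PFOA. The count table tags its Ensembl entry as lying at an error of the reference genome, and 0% of its 50-base words occur in exons of other genes.

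The diets were compared under PFOA, which asks whether HFD_PFOA livers held more or less of each RNA than CD_PFOA livers. Otop1 averaged 42.2 ± 13.1 CPM in HFD_PFOA and 19.7 ± 2.23 CPM in CD_PFOA (SD, n = 4 each), 2.14-fold higher in HFD_PFOA. The log2 difference was 1.10 ± 0.20 (SE), with a 95% interval of 0.66 to 1.53, and the edgeR adjusted p was 0.0843, short of the 0.05 threshold. Of all genes tested, edgeR called 0.06% in this contrast (9 of 14998; 0.0467% higher and 0.0133% lower), and 0 of the 7 members. The Otop1 call depends on the setting: DESeq2 gave an adjusted p of 0.000508, an edgeR fit of only the HFD_PFOA and CD_PFOA livers 0.0125, and scaling by library totals 0.0456. Of all genes tested, these settings called 1.19%, 0.924% and 0.08%. Over 21 alternatives edgeR or DESeq2 called it in 7, with adjusted p-values from 3.89e-05 to 0.222 and a log2 difference from 0.95 to 1.26. It passed the threshold also when CD_vehicle 1, CD_vehicle 4 or HFD_PFOA 3 was left out (edgeR adjusted p = 0.0418, 0.0345 and 0.0275).

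Otop1 was the only otopetrin gene with reads: Otop2 and Otop3, the other proton channels of the family, had 0 counts in all 16 libraries.

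Aqp3 encodes aquaporin 3, a membrane pore for water and glycerol, at chr4:41092722-41098183 on the minus strand. It had 259, 283, 288 and 256 counts (10.97, 11.6, 11.2 and 10.03 CPM) in HFD_PFOA livers and 331, 163, 199 and 202 counts (13.8, 6.75, 8.39 and 8.26 CPM) in CD_PFOA livers. All HFD_vehicle livers had 0 counts, and CD_vehicle livers had 0, 0, 1 and 4. The HFD_PFOA livers were close together and lay inside the CD_PFOA range, whose top value is liver 1. Aqp3 was at least 316-fold higher with PFOA in HFD, and in CD the ratio of summed CPM was 168, with a 95% counting interval of 71.8 to 519. Without CD_vehicle 4 a single vehicle count remains, and the CD ratio is 624 (112 to 24657). Between the diets it averaged 10.9 ± 0.663 CPM in HFD_PFOA and 9.29 ± 3.07 CPM in CD_PFOA (SD, n = 4 each), a log2 difference of 0.24 ± 0.29 (SE, 95% interval -0.39 to 0.86, edgeR adjusted p = 0.839).

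The other aquaporins did not move as a group. Of 11 listed, 6 were tested, and edgeR called 1 higher and 0 lower with PFOA in HFD, and 1 higher and 2 lower in CD. Over all genes, 7.91% were called lower in HFD and 12.6% in CD. Aqp7, the glycerol channel of adipocytes, was the gene that rose on both diets, and it lies 44583 bp from Aqp3. It averaged 6.92 ± 1.63 CPM in HFD_PFOA against 1.17 ± 0.315 in HFD_vehicle (log2 fold change 2.54 ± 0.47, edgeR adjusted p = 0.000666), and 3.89 ± 0.723 CPM in CD_PFOA against 0.191 ± 0.245 in CD_vehicle (log2 fold change 4.27 ± 0.57, edgeR adjusted p = 1.26e-05). Aqp9, the main glycerol pore of hepatocytes, fell in CD_PFOA with a log2 fold change of -0.50 ± 0.12 (edgeR adjusted p = 0.00481), and in HFD its value was -0.28 ± 0.12 (edgeR adjusted p = 0.123). Aqp8, a water pore of hepatocytes, fell in CD_PFOA (log2 fold change -1.62 ± 0.28, edgeR adjusted p = 0.000255), and its HFD value was -0.80 ± 0.28 (edgeR adjusted p = 0.0573). In the test of the difference of the PFOA effect between the diets, edgeR called 0 of the 6, and 0.207% of all genes.

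Among 8 tested genes of glycerol release and use, a list that holds Aqp7 and Aqp9 as well, edgeR called 5 higher and 0 lower in HFD and 5 higher and 1 lower in CD. The median log2 fold change was 0.64 in HFD and 0.67 in CD. Pnpla2, the lipase that opens triglyceride breakdown, rose by a log2 fold change of 1.27 ± 0.13 in HFD and 1.62 ± 0.13 in CD. Lipe, the hormone-sensitive lipase, rose by 1.83 ± 0.14 in HFD and 1.48 ± 0.13 in CD on the same scale, and Mgll, which frees glycerol from monoglycerides, by 0.92 ± 0.16 and 0.99 ± 0.16.

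Kcnq3 encodes a subunit of voltage-gated potassium channels that helps carry the neuronal M current, and lies at chr15:65986387-66286642 on the minus strand. It had 105, 72, 117 and 131 counts (4.45, 2.95, 4.55 and 5.13 CPM) in HFD_PFOA livers, against 122, 45, 36 and 29 counts (5.07, 1.86, 1.52 and 1.19 CPM) in CD_PFOA livers, and 0 in all 8 vehicle livers. In CD_PFOA, liver 1 was far above the other 3 and inside the HFD_PFOA range, while those 3 lay below it. The rise was at least 124-fold in HFD and at least 72.7-fold in CD, or at least 45.9-fold in CD without CD_PFOA 1. The means were 4.27 ± 0.931 CPM in HFD_PFOA and 2.41 ± 1.79 CPM in CD_PFOA (SD, n = 4 each), a log2 difference of 0.82 ± 0.48 (SE, 95% interval -0.20 to 1.85, edgeR adjusted p = 0.565). Without CD_PFOA 1 the log2 difference was 1.48 and the edgeR adjusted p 0.187.

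No other tested channel subunit of the family was called higher. Of 8 listed KCNQ channels and KCNE subunits, 3 were tested, and edgeR called 0 higher on either diet. Kcnq5, another neuronal subunit too sparse to be tested, had 27 counts over the HFD_PFOA, 25 over the CD_PFOA, 9 over the HFD_vehicle and 0 over the CD_vehicle livers. Kcnq1 gave log2 fold changes of 0.79 ± 0.63 in HFD and 0.41 ± 0.61 in CD, neither called by edgeR. Kcne4, an inhibitory beta subunit of potassium channels, fell with PFOA in CD, with 1 count summed over the CD_PFOA livers against 53 over the CD_vehicle livers (edgeR adjusted p = 0.00183), while HFD_PFOA held 18 and HFD_vehicle 25 (edgeR adjusted p = 0.67).

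Gabrg1 encodes the gamma 1 subunit of GABA-A receptors, chloride channels opened by the transmitter GABA, and lies at chr5:70751047-70842617 on the minus strand. Its counts were 185, 146, 125 and 98 (7.84, 5.98, 4.86 and 3.84 CPM) in HFD_PFOA livers and 59, 64, 66 and 54 (2.45, 2.65, 2.78 and 2.21 CPM) in CD_PFOA livers. All HFD_vehicle livers had 0, and CD_vehicle livers had 0, 0, 1 and 19. Every HFD_PFOA liver was above every CD_PFOA liver, and 1 vehicle liver, CD_vehicle 4, held nearly all vehicle counts. With PFOA it was at least 161-fold higher in HFD and 11.4-fold higher in CD (95% counting interval 7.23 to 19.0), and without CD_vehicle 4 the CD ratio against 1 count was 169 (30.1 to 6714). Its diet means were 5.63 ± 1.71 CPM in HFD_PFOA and 2.52 ± 0.250 CPM in CD_PFOA (SD, n = 4 each), a log2 difference of 1.16 ± 0.62 (SE, 95% interval -0.16 to 2.47, edgeR adjusted p = 0.517). The edgeR adjusted p was 0.0536 in the fit of only the HFD_PFOA and CD_PFOA livers and 0.143 without CD_vehicle 4. All vehicle counts of Gabrg1 lie in CD, so the pattern that picked it is clearer in HFD. Its choice may thus favour a higher level in HFD_PFOA. The p-values and interval of Gabrg1 may therefore not be an independent test of the diets.

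Of 17 other GABA-A subunits listed, 1 was tested, Gabra3, and it was not called on both diets. Gabra3, an alpha subunit, had a log2 fold change of -0.21 ± 0.22 in HFD (edgeR adjusted p = 0.618) and rose in CD with 0.66 ± 0.23 (edgeR adjusted p = 0.0403). Of 9 genes for GABA synthesis, uptake and breakdown 4 were tested: edgeR called 1 higher and 1 lower in HFD, and 1 higher and 2 lower in CD. Slc6a13, a hepatic GABA transporter, fell on both diets, with log2 fold changes of -0.63 ± 0.12 in HFD and -0.56 ± 0.12 in CD, and Gad1 had 0 counts.

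Ucp3 encodes uncoupling protein 3, a carrier of the inner mitochondrial membrane that in muscle responds to fatty acids, and lies at chr7:100472990-100486432 on the plus strand. It had 405, 259, 217 and 285 counts (17.2, 10.6, 8.44 and 11.2 CPM) in HFD_PFOA livers and 282, 189, 157 and 154 counts (11.7, 7.83, 6.62 and 6.30 CPM) in CD_PFOA livers. HFD_vehicle livers had 0, 0, 3 and 2 counts, and all CD_vehicle livers 0. The PFOA ranges of the diets overlapped, with the highest value of each in liver 1. The ratio was 203 in HFD (95% counting interval 86.9 to 628; 420, interval 116 to 3476, without HFD_vehicle 3) and at least 245 in CD. The means were 11.8 ± 3.73 CPM in HFD_PFOA and 8.11 ± 2.49 CPM in CD_PFOA (SD, n = 4 each), a log2 difference of 0.54 ± 0.32 (SE, 95% interval -0.13 to 1.22, edgeR adjusted p = 0.566).

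Ucp3 shares its neighbourhood with Ucp2, a relative 6905 bp away that rose too, and that already had a level well above 0 under vehicle. Ucp2 had 138, 189, 189 and 183 CPM in HFD_PFOA livers against 51.3, 53.7, 55.7 and 63.0 in HFD_vehicle livers, and 194, 189, 200.4 and 195 CPM in CD_PFOA livers against 26.0, 20.7, 26.8 and 56.0 in CD_vehicle livers. Its log2 fold change was 1.64 ± 0.21 in HFD (edgeR adjusted p = 1.06e-05) and 2.59 ± 0.22 in CD (edgeR adjusted p = 3.25e-08). Of 5 listed relatives 4 were tested, and edgeR called 2 higher and 0 lower on each diet, Ucp2 and the mitochondrial carrier Slc25a30 (log2 fold change 1.43 ± 0.16 in HFD and 2.25 ± 0.16 in CD). Ucp1, the uncoupling protein of brown fat, had 6 counts in 1 HFD_PFOA library and 0 elsewhere. Gm10603, an antisense RNA inside the Ucp3 gene that shares no exon base with it and was looked at after its values were seen, had log2 fold changes of 2.36 ± 0.90 in HFD (edgeR adjusted p = 0.0838) and 2.61 ± 0.91 in CD (edgeR adjusted p = 0.0431). The libraries carry no strand, so reads of Ucp3 introns and of Gm10603 cannot be told apart.

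Slc22a12 encodes URAT1, the transporter that takes urate back up in the kidney proximal tubule, and lies at chr19:6535845-6543032 on the minus strand. It had 14, 9, 64 and 10 counts (0.593, 0.368, 2.49 and 0.392 CPM) in HFD_PFOA livers, against 5, 7, 1 and 7 counts (0.193, 0.357, 0.0666 and 0.268 CPM) in HFD_vehicle livers. CD_PFOA livers had 72, 53, 116 and 35 counts (2.99, 2.19, 4.89 and 1.43 CPM), and all CD_vehicle livers had 0. The pattern of about 0 counts under vehicle thus holds in CD only: in HFD the lowest PFOA liver barely exceeds the highest vehicle liver, and HFD_PFOA 3 holds 64 of 97 counts. The rise was at least 86.4-fold in CD, and the HFD ratio was 4.23 (95% counting interval 2.60 to 7.23), or 1.94 (1.08 to 3.57) without HFD_PFOA 3.

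Slc22a12 was lower in HFD_PFOA than in CD_PFOA livers, but not past the threshold. The means were 0.961 ± 1.02 CPM in HFD_PFOA and 2.88 ± 1.49 CPM in CD_PFOA (SD, n = 4 each). The log2 difference was -1.57 ± 0.65 (SE, 95% interval -2.96 to -0.19, unadjusted p = 0.0284, edgeR adjusted p = 0.39), and 3 of 4 HFD_PFOA livers lay below all CD_PFOA livers. Without HFD_PFOA 3 it was -2.66 (edgeR adjusted p = 0.202). Because the pattern that picked Slc22a12 holds in CD only, its choice favours a higher level in CD_PFOA. The p-values and interval of Slc22a12 are therefore not an independent test of the diets. Of its 2263 exon bases, 682 (30.1%) lie under exons of Nrxn2 on the other strand, and without strand the reads there cannot be told apart. Nrxn2, looked at for this reason only, averaged 1.89 CPM in HFD_PFOA, 2.33 in CD_PFOA, 2.09 in HFD_vehicle and 1.64 in CD_vehicle, and edgeR called it neither for PFOA (log2 fold change -0.15 in HFD and 0.50 in CD) nor for diet under PFOA (-0.30).

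Other SLC22 transporters of organic ions moved in both directions. Of 24 listed 16 were tested, and edgeR called 3 higher and 4 lower in HFD, and 4 higher and 5 lower in CD. Slc22a5, the carnitine transporter OCTN2 and a known PPARA target, rose by a log2 fold change of 2.33 ± 0.13 in HFD and 2.37 ± 0.13 in CD. Slc22a3, an organic cation transporter, rose by 1.26 ± 0.20 in HFD and 1.52 ± 0.20 in CD. Slc22a7, the liver organic anion transporter OAT2, fell with log2 fold changes of -2.34 ± 0.69 in HFD (edgeR adjusted p = 0.0233) and -3.89 ± 0.69 in CD (edgeR adjusted p = 0.000311). Slc22a6, the kidney organic anion transporter OAT1, had 40 counts in HFD_PFOA and 4 in HFD_vehicle (edgeR adjusted p = 0.134), and 69 in CD_PFOA and 2 in CD_vehicle (edgeR adjusted p = 0.0213).

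For urate handling, 9 of 11 listed genes were tested, some of them SLC22 members, and edgeR called 1 higher and 3 lower in HFD and 2 higher and 3 lower in CD. Abcg2, an exporter of urate, rose by a log2 fold change of 0.69 ± 0.12 in HFD and 0.70 ± 0.12 in CD. Slc17a1, a phosphate and urate transporter, fell with -1.19 ± 0.19 in HFD and -0.79 ± 0.19 in CD. Xdh, which makes urate, fell in HFD (log2 fold change -0.44 ± 0.09, edgeR adjusted p = 0.00161; in CD -0.24 ± 0.09, edgeR adjusted p = 0.0567). Uox, which breaks urate down in mice, had -0.11 ± 0.14 in HFD (edgeR adjusted p = 0.674) and fell in CD with -0.55 ± 0.14 (edgeR adjusted p = 0.00532). No gene of the list was called by edgeR for a difference of the PFOA effect between diets.

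**Figure D2:**
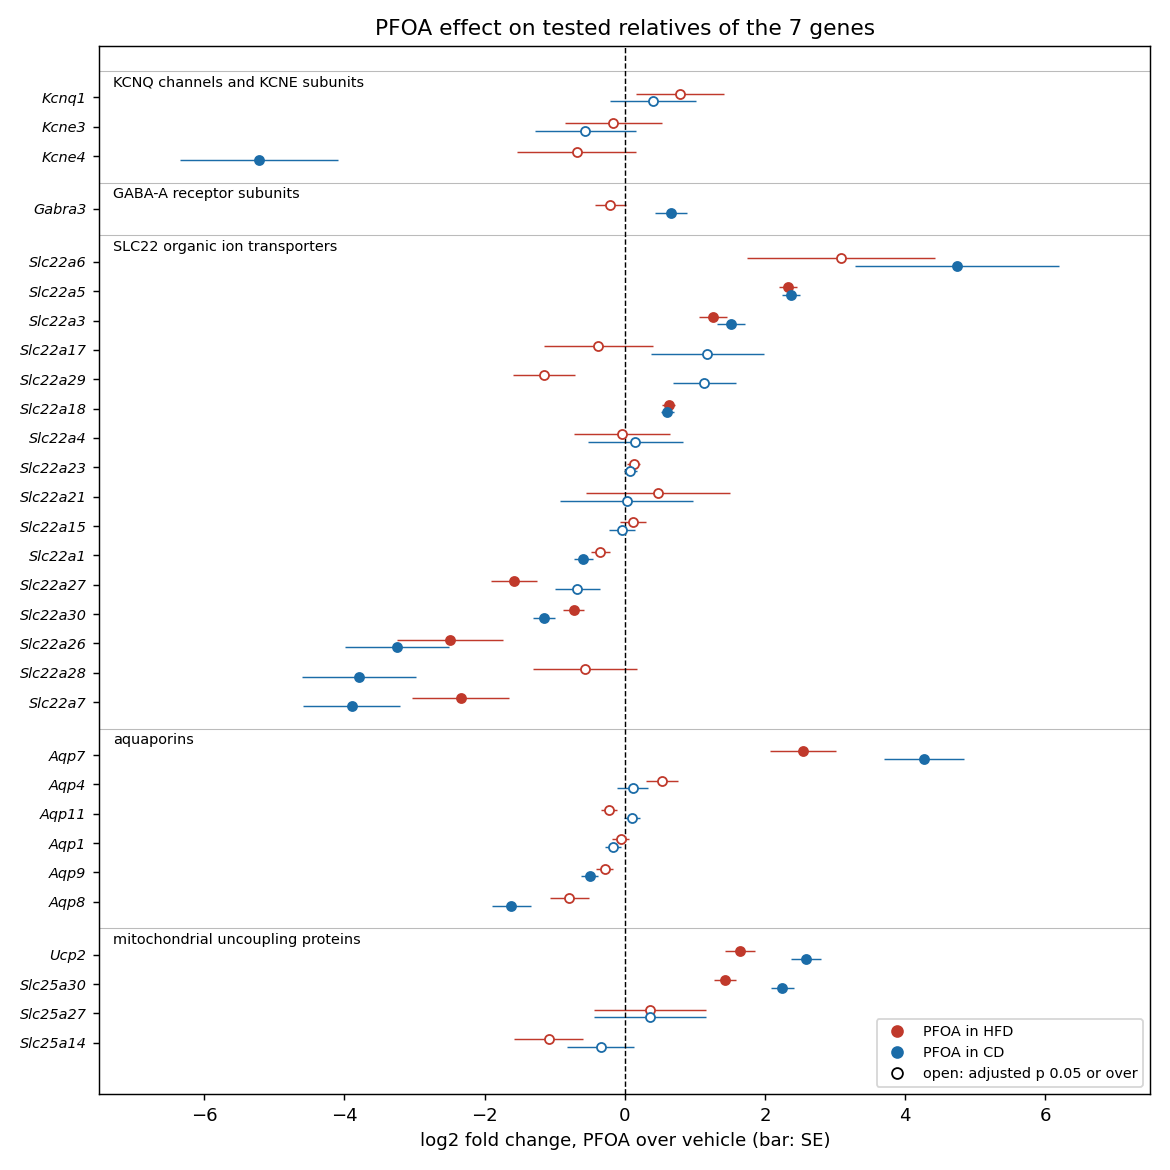
Log2 fold change of PFOA over vehicle (horizontal axis; bars are SE) for the tested relatives reported here, HFD in red above CD in blue; filled points have an edgeR adjusted p under 0.05. Aqp7, Ucp2, Slc25a30 and Slc22a5 rose on both diets, and Slc22a7 fell on both.

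Vmn2r3 encodes a vomeronasal type 2 receptor, from a large family of G protein coupled receptors by which mouse sensory neurons detect pheromones, and lies at chr3:64257215-64289709 on the minus strand. It had 2, 113, 110 and 97 counts (0.0847, 4.63, 4.28 and 3.80 CPM) in HFD_PFOA livers and 179, 177, 74 and 141 counts (7.44, 7.33, 3.12 and 5.77 CPM) in CD_PFOA livers, and 0 in all 8 vehicle livers. HFD_PFOA 1 is nearly empty of it, although that liver has the highest Ucp3 and Gabrg1 of its group. The rise was at least 93.6-fold in HFD (at least 122-fold without HFD_PFOA 1) and at least 179-fold in CD. The means were 3.20 ± 2.10 CPM in HFD_PFOA and 5.91 ± 2.01 CPM in CD_PFOA (SD, n = 4 each), a log2 difference of -0.88 ± 0.67 (SE, 95% interval -2.32 to 0.55, edgeR adjusted p = 0.691). Without HFD_PFOA 1 it was -0.48.

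The rest of the Vmn2r family stayed close to silent. Of 121 relatives in the table, 11 had any count, 29 counts in all over the 16 libraries, and none was tested. Of the 50-base words in Vmn2r3 exons 3.09% occur in other genes (mostly Vmn2r2, Vmn2r4 and Vmn2r6), and where its reads fall in the exons is not known. The rule by which shared reads were counted is not stated in the labels read here.

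In the test of the diets, 5 members were higher and 2 lower in HFD_PFOA than in CD_PFOA, with a median log2 difference of 0.545, beside 0.00231 over all genes tested (interquartile range -0.155 to 0.214). Slc22a12 and Vmn2r3 are the lower pair. The edgeR test called 0 of 7 (0.06% of all genes tested), and DESeq2 called 1, Otop1 (1.19% of all genes tested). Otop1 and Slc22a12 (2 of 7) had an unadjusted edgeR p under 0.05, as did 1665 of 14998 genes. For Slc22a12 this is not independent of its choice, which rests on CD. The choice of Gabrg1, among the 5 higher members, may likewise favour HFD_PFOA. The intervals above are wide for the 6 genes other than Otop1 and each but that of Slc22a12 spans 0, so equal levels on the diets are not shown. Liver CD_PFOA 1 was the highest of its group for 4 of 7 members, and its PPARA-responsive reference genes lay a median of 0.253 log2 above the other 3. The 2 measures did not run in parallel over the group. CD_PFOA 3 was the highest for 3 members with a reference median of -0.161, and CD_PFOA 4 for 0 members with 0.142. The part of such differences between livers in the results was not tested.

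**Figure D3:**
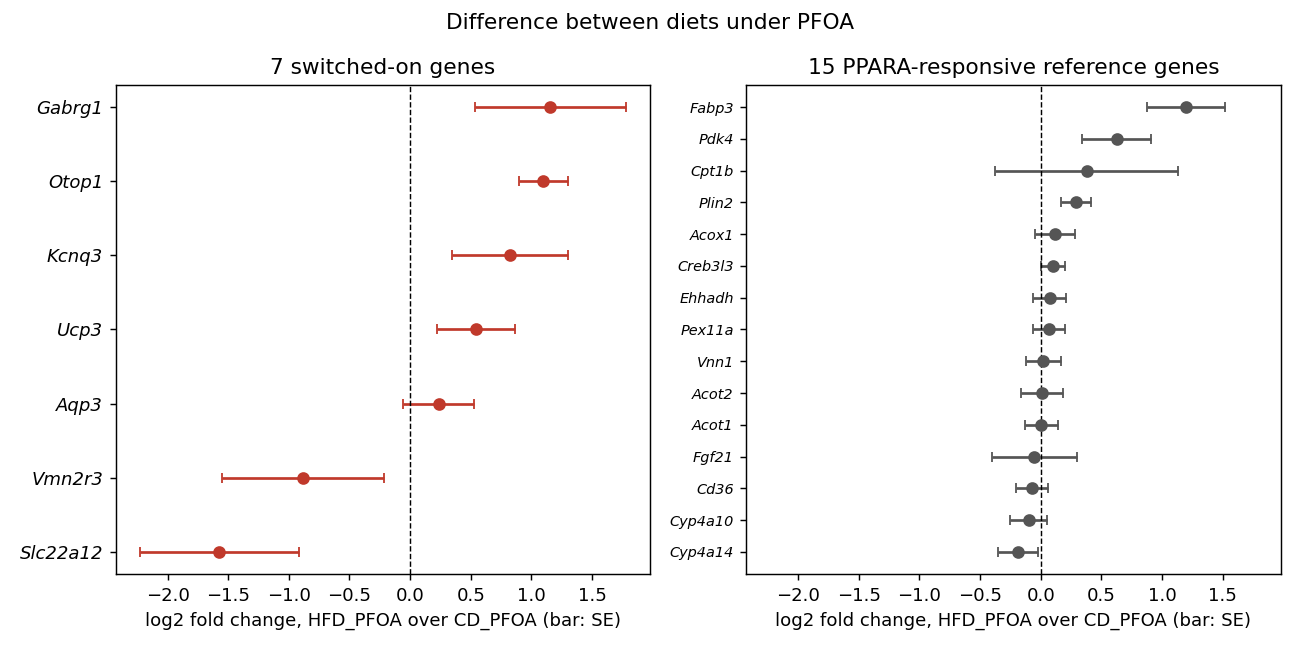
Log2 fold change of HFD_PFOA over CD_PFOA (horizontal axis; bars are SE) for the 7 genes on the left and 15 PPARA-responsive reference genes on the right. Values of the 7 genes run from -1.57 for Slc22a12 to 1.16 for Gabrg1, and the median of the reference genes is 0.069.

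Among genes known to answer PPARA in mouse liver, 15 of 15 were called higher by edgeR with PFOA on each diet, with a median log2 fold change of 2.47 in HFD and 3.0 in CD. This list, like the members, was chosen with results of these data known. Under PFOA edgeR called 0 of 15 between the diets, with a median log2 difference of 0.069. Fabp3, a fatty acid binding protein of heart and muscle with 0 counts in CD_vehicle, lies above the CD median of 3.0 also when its CD fold is set to its lower bound. It had the largest diet difference of the 15, with 25.4, 23.2, 19.6 and 29.9 CPM in HFD_PFOA livers and 17.9, 6.91, 5.69 and 12.2 CPM in CD_PFOA livers, a log2 difference of 1.20 ± 0.32 (edgeR adjusted p = 0.158). Of 8 reference genes of CAR and PXR, edgeR called 7 higher on each diet and 0 between the diets under PFOA. Over all genes tested, 8.6% were called higher with PFOA in HFD, 11.8% in CD, and 0.06% between the diets under PFOA. Under vehicle, edgeR called 5 of the 8 higher in HFD_vehicle than in CD_vehicle, beside 10.4% of all genes in either direction. The interaction test called 1 of the 8, with a median log2 difference of -1.1, beside 0.207% of all genes.

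Per kilobase of exon, Otop1, Aqp3 and Ucp3 had the highest means on both diets, as they did in CPM. The length is the union of the exons of all GENCODE M21 transcripts of a gene. It can exceed the RNA present, as it may for Vmn2r3 (17411 bp, 9 transcripts) and Kcnq3 (14708 bp, 3 transcripts). The order of the genes with other lengths was not tested. The counted entries of Vmn2r3 and Slc22a12 also differ in version from those of GENCODE M21. In HFD_PFOA the order of mean CPM per kilobase was Otop1 (12.3), Aqp3 (5.99), Ucp3 (3.78), Gabrg1 (0.715), Slc22a12 (0.425), Kcnq3 (0.290) and Vmn2r3 (0.184). The ranges of the first 3 do not overlap the next gene down, and those below do. In CD_PFOA the order was Otop1 (5.72), Aqp3 (5.08), Ucp3 (2.59), Slc22a12 (1.27), Vmn2r3 (0.340), Gabrg1 (0.321) and Kcnq3 (0.164), and only the range of Slc22a12 fails to overlap the next.

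Genes most like each member were found by the root mean square distance between their log2(CPM + 0.5) profiles over the 16 libraries, each centred on its mean. Ucp3 and Aqp3 were each other's closest gene at a distance of 0.292, next to Ehhadh, a peroxisomal beta-oxidation enzyme (0.342 from Ucp3 and 0.299 from Aqp3). For Otop1 the closest were Slc27a1 (0.526), a fatty acid transport protein, Fabp3 (0.565) and Acot1 (0.643), an acyl-CoA thioesterase. Gabrg1 lay nearest to Pdk4 (0.464), a kinase that restrains glucose oxidation, and Kcnq3 to Gm45470 (0.365) and Hsd17b11 (0.413), a lipid droplet dehydrogenase. Slc22a12 lay nearest to Slc25a30 (0.536), and Vmn2r3, the most isolated member, to Gm45225 (0.702) and Vldlr (0.765), the very low density lipoprotein receptor. Also among the 3 nearest were Trpm4 (0.361) for Ucp3, Cyp4a14 (0.315) for Aqp3 and Pnliprp1 (0.456) for Kcnq3. For Gabrg1 they included Pnliprp1 (0.473) and Retsat (0.497), for Slc22a12 Cpne5 (0.559) and Atp8a2 (0.567), and for Vmn2r3 Dab1 (0.784). Among the members, the 21 pairs had a median distance of 1.08 and the farthest was Otop1 with Slc22a12 (2.30). All profiles share the same libraries and the same step between PFOA and vehicle, so these distances describe shape and size of the step only.

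A numeric form of the pattern, at most 3 counts over 8 vehicle libraries and at least 5 in every PFOA library, was met by 10 of 53465 rows, among them 2 members, Otop1 and Kcnq3. The others were Fabp3, the acyl-CoA thioesterase Acot5, the growth factor Areg, Rtl4, Gm5420, AC134860.4, Arhgap27os2 and Fabp3-ps1, a processed pseudogene of Fabp3 whose reads may belong to it. Just outside lie Aqp3 and Ucp3 with 5 vehicle counts each, then Gabrg1 and Slc22a12 with 20 each, and Vmn2r3 through its liver with 2 counts. By mean PFOA level, Otop1 at 30.9 CPM ranked first of the 10 and Fabp3 at 17.6 CPM second.

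**Figure D4:**
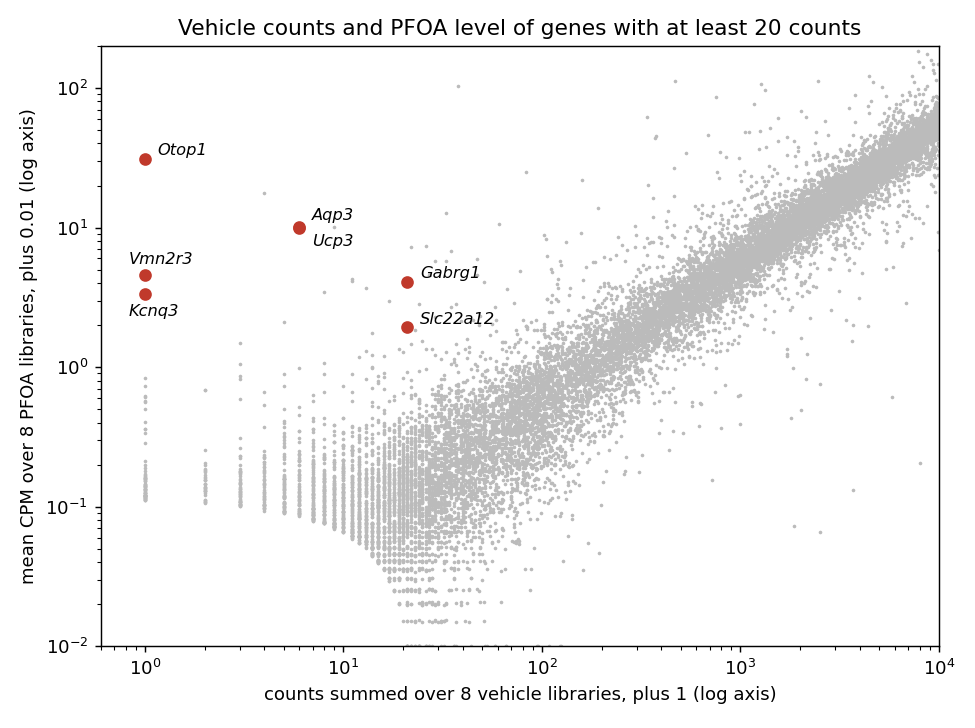
Mean CPM over 8 PFOA libraries plus 0.01 (vertical log axis) against counts summed over 8 vehicle libraries plus 1 (horizontal log axis); grey dots are genes with at least 20 counts, red points the 7 genes. Otop1, Kcnq3 and Vmn2r3 lie at 0 vehicle counts, and Gabrg1 and Slc22a12 at 20.

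Markers of the tissues in which the members are normally found were looked up in every library, since RNA of another tissue would bring them along. For skeletal muscle 7 of 9 markers had any count, with sums of 0.548 to 0.817 CPM in HFD_PFOA, 0.0818 to 0.789 in CD_PFOA, 0 to 1.15 in HFD_vehicle and 0.342 to 4.17 in CD_vehicle, and Ckm, Myh1 and Myh4 were at 0 in all PFOA libraries. For kidney tubule 5 of 8 had counts, with sums of 0.0819 to 1.23 CPM in HFD_PFOA, 0 to 1.39 in CD_PFOA, 0.116 to 0.920 in HFD_vehicle and 0 to 0.555 in CD_vehicle, and Kap, Aqp2 and Slc5a2 were at 0 in all 16. For neurons 4 of 8 had counts, with sums of 5.68 to 8.05 CPM in HFD_PFOA, 4.55 to 8.64 in CD_PFOA, 7.11 to 8.86 in HFD_vehicle and 6.15 to 8.57 in CD_vehicle, and Snap25, Nefl, Slc17a7 and Gad1 were at 0. Most of the muscle reads under PFOA were of Mylpf, of the kidney reads of Slc22a6, described above, and of the neuron reads of Syt1. Syt1 had 595 counts over the HFD_PFOA, 528 over the CD_PFOA, 598 over the HFD_vehicle and 622 over the CD_vehicle livers.

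For keratinocytes 3 of 6 markers had counts, with Krt1, Krt14 and Dsg3 at 0 and sums of 1.01 to 2.33 CPM in HFD_PFOA, 1.25 to 1.70 in CD_PFOA, 0.102 to 2.13 in HFD_vehicle and 0.513 to 1.97 in CD_vehicle. For taste and vestibular epithelium 1 of 5 had counts, with Pkd2l1, Otog, Oc90 and Gnat3 at 0 and sums up to 0.424 CPM in HFD_PFOA, 0.249 in CD_PFOA, 0.345 in HFD_vehicle and 0.870 in CD_vehicle. For vomeronasal neurons Trpc2, their sensory channel, was at 0, while the list, nearly all of it the widely expressed G protein subunit Gnai2, summed to 157 to 189 CPM in HFD_PFOA, 166 to 193 in CD_PFOA, 162 to 197 in HFD_vehicle and 136 to 185 in CD_vehicle. For brown adipocytes all 5 markers had counts: Cidea, also a lipid droplet gene of fatty liver, rose on both diets (log2 fold change 1.47 in HFD and 1.90 in CD), Elovl3 fell in CD (log2 fold change -2.35), and the sums were 150 to 342 CPM in HFD_PFOA, 105 to 162 in CD_PFOA, 118 to 282 in HFD_vehicle and 136 to 371 in CD_vehicle. Of 6 macrophage markers edgeR called 0 with PFOA on either diet, of 6 cholangiocyte markers 1, Spp1, lower in HFD, and the 1 tested marker each of heart muscle and of white adipocytes was not called. The part of other cell types in the results was not tested.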

How the data were processed

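Liver RNA of 16 mice was sequenced from non-stranded libraries after Qiagen RNeasy extraction, per the labels' protocols. The authors deposited raw counts of reads per gene, made on GRCm38 (mm10) with STAR 2.5.2b and featureCounts (Subread 1.6.0) after Trimmomatic 0.33 and bcl2fastq 2.20.0.422, per the submitters' processing notes. Annotation release and multimapping setting: not given in the sources used here. Positions and exon lengths are from GENCODE M21.

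Groups come from the labels, and replicate numbers follow record order. No pair of libraries within a group was alike within counting noise (chi-square over its degrees of freedom, 8.13 to 138). Pairs with CD_vehicle 1 gave 122 to 138, and all other pairs 8.13 to 53.7. The edgeR 4.0.16 quasi-likelihood test (filterByExpr, TMM, a mean per group, 16 libraries) ran on the whole table and was tested on simulated data. P-values were Benjamini-Hochberg adjusted over 14998 genes, called under 0.05. CPM are given as mean ± SD, and SE is the log2 value over the square root of F. Intervals of ratios and floors (3 counts) rest on counts summed over the livers of a group. They cover counting error only and leave out the spread between mice, and reads carry no molecular identifiers. Scaling, filter, DESeq2 1.42.0, only the groups compared and leaving out each library were tried. The members and lists were chosen with earlier results of these data known. Some relatives are in every fit but are not reported here. Named genes are the members, up to 4 per list with the smallest p among those called, the closest relatives, and the 3 nearest profiles; Gm10603, Nrxn2, Fabp3, Cidea, Elovl3, Slc22a6, Spp1, Syt1, Kcnq5 and the markers at 0 were added after their values were seen, where a result touched them.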

Additional observations from a re-analysis of the deposited data

Results flagged for a closer look

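Among the members, 2 groups held a liver far from the other 3: Slc22a12 in HFD_PFOA, where liver 3 had 2.49 CPM beside 0.368 to 0.593 CPM, and Gabrg1 in CD_vehicle, where liver 4 had 0.812 CPM beside 0 to 0.0468 CPM. Of 164 groups of 4 livers checked over 41 genes, 13 were set apart in this way, where chance gives about 1 in 20. The 164 include groups at 0 in every liver, which could not be set apart, so that rate does not apply to them. A group with counts in 1 liver only, as Kcne4 in CD_PFOA, is always set apart, so the rate does not apply there either.

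The other 11 concern relatives and reference genes. In HFD_PFOA 1 they were Abcg2 at 254 CPM (others 168 to 180), Slc22a30 at 42.4 CPM (26.4 to 29.1), Ucp2 at 138 CPM (183 to 189) and Cyp3a11 at 5942 CPM (5300 to 5384). In CD_PFOA 3 they were Acot2 at 252 CPM (341 to 355), Gabra3 at 5.65 CPM (4.55 to 4.74) and Kcne4 at 0.0421 CPM (0 in the others), and in CD_PFOA 2 Aqp9 at 272 CPM (311 to 318). Under vehicle they were Aqp8 at 112 CPM in HFD_vehicle 3 (158 to 165), Uox at 1776 CPM in HFD_vehicle 4 (1564 to 1587) and Slc6a12 at 51.9 CPM in CD_vehicle 4 (66.0 to 67.9).

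The PFOA effect differed between the diets by the edgeR interaction test for 1 named gene, Cyp3a11, a drug-metabolising enzyme under PXR, with a log2 difference (PFOA in HFD minus PFOA in CD) of -1.49 (edgeR adjusted p = 0.00244). Over all genes 0.207% were called in this test.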

How the results depend on the processing

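No paired analysis was possible because the labels give no replicate numbers. For diet under PFOA edgeR called 0.06% of genes. It called 0.805% (142 higher, 83 lower) with no filter on low counts and 0.924% (75 and 54) with only the groups compared, DESeq2 1.19% (99 and 80), and edgeR 0.0065% (without CD_PFOA 4) to 0.364% (without CD_vehicle 4) with a library left out. For diet under vehicle 10.4% were called, 6.46% with only the groups compared and 5.72% (without HFD_vehicle 4) to 14.8% (without CD_vehicle 4) with a library left out. For the interaction 0.207% were called, 1.04% with no filter, 1.39% with DESeq2, and 0.0844% (without HFD_vehicle 4) to 2.29% (without CD_vehicle 4). PFOA calls were 16.5% in HFD and 24.4% in CD, and 8.55% and 12.2% with no filter, which tests 27956 genes in place of 14998; their numbers of called genes kept within 1.5 times in the alternatives run. Scaling by library totals moved the median of diet under vehicle to 0.188, against -0.0286 with TMM, and its calls to 2052 higher and 288 lower (779 and 782 with TMM), PFOA in CD to 2160 higher and 1376 lower (1763 and 1893), and the interaction to 6 higher and 38 lower (10 and 21). The cause was not tested.

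The log2 difference of Otop1 between diets passed the threshold with library totals (1.18), no filter (1.10), DESeq2 (1.10) and only the groups compared (1.10), and ran from 0.949 to 1.26 without a library. The other members kept their direction and stayed uncalled in 21 alternatives, with values without a library of 0.311 to 0.775 for Ucp3, -1.11 to -0.481 for Vmn2r3, -2.66 to -1.19 for Slc22a12, 0.115 to 0.488 for Aqp3, 0.954 to 1.30 for Gabrg1 and 0.602 to 1.48 for Kcnq3; DESeq2 gave Slc22a12 no adjusted p. The numeric pattern was met by 6 genes with 0 vehicle counts and by 4 with at least 10 counts in each PFOA library. Of 1426 values of 34 named relatives, 1395 kept direction and call, and 1 uncalled one changed sign, Abat with PFOA in CD (-0.0313 without CD_vehicle 4, up to 0.213). Vmn2r3 and Slc22a12 have the widest intervals.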

Other observations

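Of the genes on either side of the members, some were detected in all groups, some were at 0 in all, and some had traces in a single group. Nol6 beside Aqp3 had 32.8 CPM in HFD_PFOA, 28.4 in CD_PFOA, 26.0 in HFD_vehicle and 27.0 in CD_vehicle, and Tmem128 beside Otop1 had 10.3, 10.5, 9.50 and 11.1 CPM in the same groups. Drd5 beside Otop1, Vmn2r4 beside Vmn2r3 and Lrrc6 beside Kcnq3 had 0 counts in all groups. Gabra2 beside Gabrg1 (0.0208 CPM) and Hhla1 beside Kcnq3 (0.00973 CPM) had traces in HFD_PFOA only. Vmn2r2 beside Vmn2r3 had them in CD_PFOA only (0.0102 CPM). Aqp7 and Ucp2, whose values stand above, are both family relatives of the member they flank.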
